A study of Mus musculus with 30 samples.

Results

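The bone marrow (BM) of obese mice that carried Shp2-mutant blood cells was compared after treatment with an antibody against interleukin-17A (IL-17A) and after vehicle. The comparison took the 3 BM libraries labelled IL17A and the 3 labelled Veh, 6 of the 30 RNA-seq libraries in the series, and covered all 13353 genes in the BM count table. The series also holds WT, GLP-1R agonist and Combo groups, in BM and in F4/80+ cells of adipose tissue. Only the BM libraries were used here, and the other BM groups serve for reference.

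In all 5 BM groups the recipients had been lethally irradiated with 700 and then 400 cGy. They had received CD45.2+ BM cells of Shp2E76K/+;LysM-Cre+ donors mixed 1:1 with CD45.1+ BM cells of Boy/J mice. Shp2E76K is a gain-of-function allele of *Ptpn11*, the gene for the phosphatase SHP2, and LysM-Cre restricts it to cells that express lysozyme, mostly myeloid cells, and to their progeny. The competitor cells carry normal *Ptpn11*, and marrow stroma comes from the recipient. *Ob/Ob* recipients (LepOb/Ob on C57BL/6J) lack leptin and become obese, while the WT group consisted of lean recipients. From 8 weeks after transplantation, *Ob/Ob* recipients were treated for 30 days. The anti-IL-17A group was given 200 µg of antibody per mouse 3 times weekly, and the GLP-1R agonist group was given beinaglutide, an activator of the glucagon-like peptide 1 receptor, at 3 mg/kg. Combo recipients were given both agents, and Vehicle recipients neither. For WT recipients the labels give no days of treatment, so their time of collection may differ. The labels give ages of 12 to 14 weeks and both sexes. They do not say whether a library came from 1 mouse or from several, so the p-values below measure the spread between these libraries, which may be technical.

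IL-17A is a cytokine made by Th17 and gamma-delta T cells. It binds a receptor of IL-17RA and IL-17RC on stromal, epithelial and myeloid cells, and the adaptor Act1 (*Traf3ip2*) then recruits TRAF6 and activates NF-kB and C/EBP factors. The genes induced in this way encode chemokines for neutrophils and monocytes, acute-phase proteins and IL-6, and IL-17A acts in synergy with TNF.

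The 6 libraries held 31281097 to 36968230 counts on genes. Counts were scaled by TMM factors to a common size of 34823592, and levels below are these normalized counts, which can be compared between libraries but not between genes of different length. The biological coefficient of variation was 2.91% within Vehicle and 2.14% within the antibody group, against 5.97% within WT, where replicate 1 stood apart from the other two. Marrow markers were present in every library, with neutrophil genes such as *S100a9* at 1843180 ± 23166 in Vehicle and 1285680 ± 6334 in the antibody group. The donor allele cannot be read from counts. The level of *Ptpn11* was 4510, 4426 and 4719 in Vehicle and 4719, 4822 and 4800 in the antibody libraries, and the ranges overlapped.

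Sex-linked transcripts differed with the groups. The X-inactivation transcript *Xist*, made in female cells, stood at 6582, 6712 and 6339 in Vehicle and 88.3, 93.5 and 113 in the antibody group. The Y-linked gene *Ddx3y* stood at 743, 698 and 695 in Vehicle and 1472, 1460 and 1488 with the antibody. Of 4 Y-linked genes tested, 3 rose and *Kdm5d* had a log2 fold change of 0.77 (SE 0.10). These levels differed together with treatment, so that sex of the cells and treatment cannot be told apart from the Vehicle and antibody libraries. In Combo, *Xist* was at 3610 ± 70.9 and *Ddx3y* at 163 ± 15.1. The 29 type I interferon-stimulated genes summed to 26251 ± 247 in Combo, 29091 ± 207 in the antibody group and 385251 ± 985 in Vehicle (SD, n = 3). Combo recipients had also been given the agonist, and the part of sex in these sums was not tested.

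**Figure D1:**
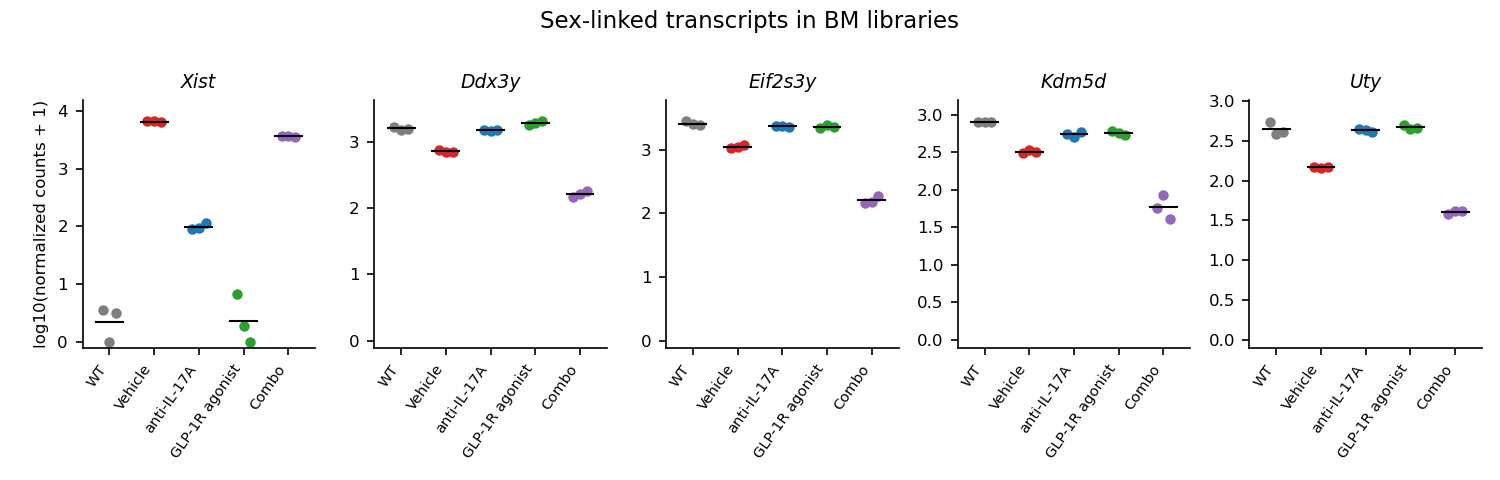
Levels of *Xist* and of 4 Y-linked genes in each BM library on a log10(normalized counts + 1) scale, by group, with a bar at the mean of the 3 log values. *Xist* was high in Vehicle and Combo libraries, from 88.3 to 113 in the antibody libraries and at 3 or fewer counts in WT.

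A gene was called when edgeR's quasi-likelihood test gave a Benjamini-Hochberg adjusted p below 0.05 and the absolute log2 fold change was above 1. Between antibody and Vehicle 2151 of 13353 genes were called, or 16.1%. Of these 1022 were higher with the antibody (7.65% of genes tested) and 1129 lower (8.46%). The larger changes were mostly decreases, since 207 genes fell and 58 rose by more than 3 on the log2 scale. The normalized counts of the 3 libraries did not overlap between the groups for 76% of all genes, so separation of the libraries alone is common here. Below, values that go from 3 numbers to 3 others are those of the Vehicle libraries and then of the antibody libraries, which come from different mice, and the groups did not overlap unless stated. Medians of lists, and values in parentheses with a standard error (SE), are log2 fold changes. The median log2 fold change of all genes was 0.0065. When libraries were scaled by their totals without TMM, this median moved to 0.18 and 1373 genes were called higher and 908 lower, so that 60.2% of calls were increases instead of 47.5%.

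**Figure D2:**
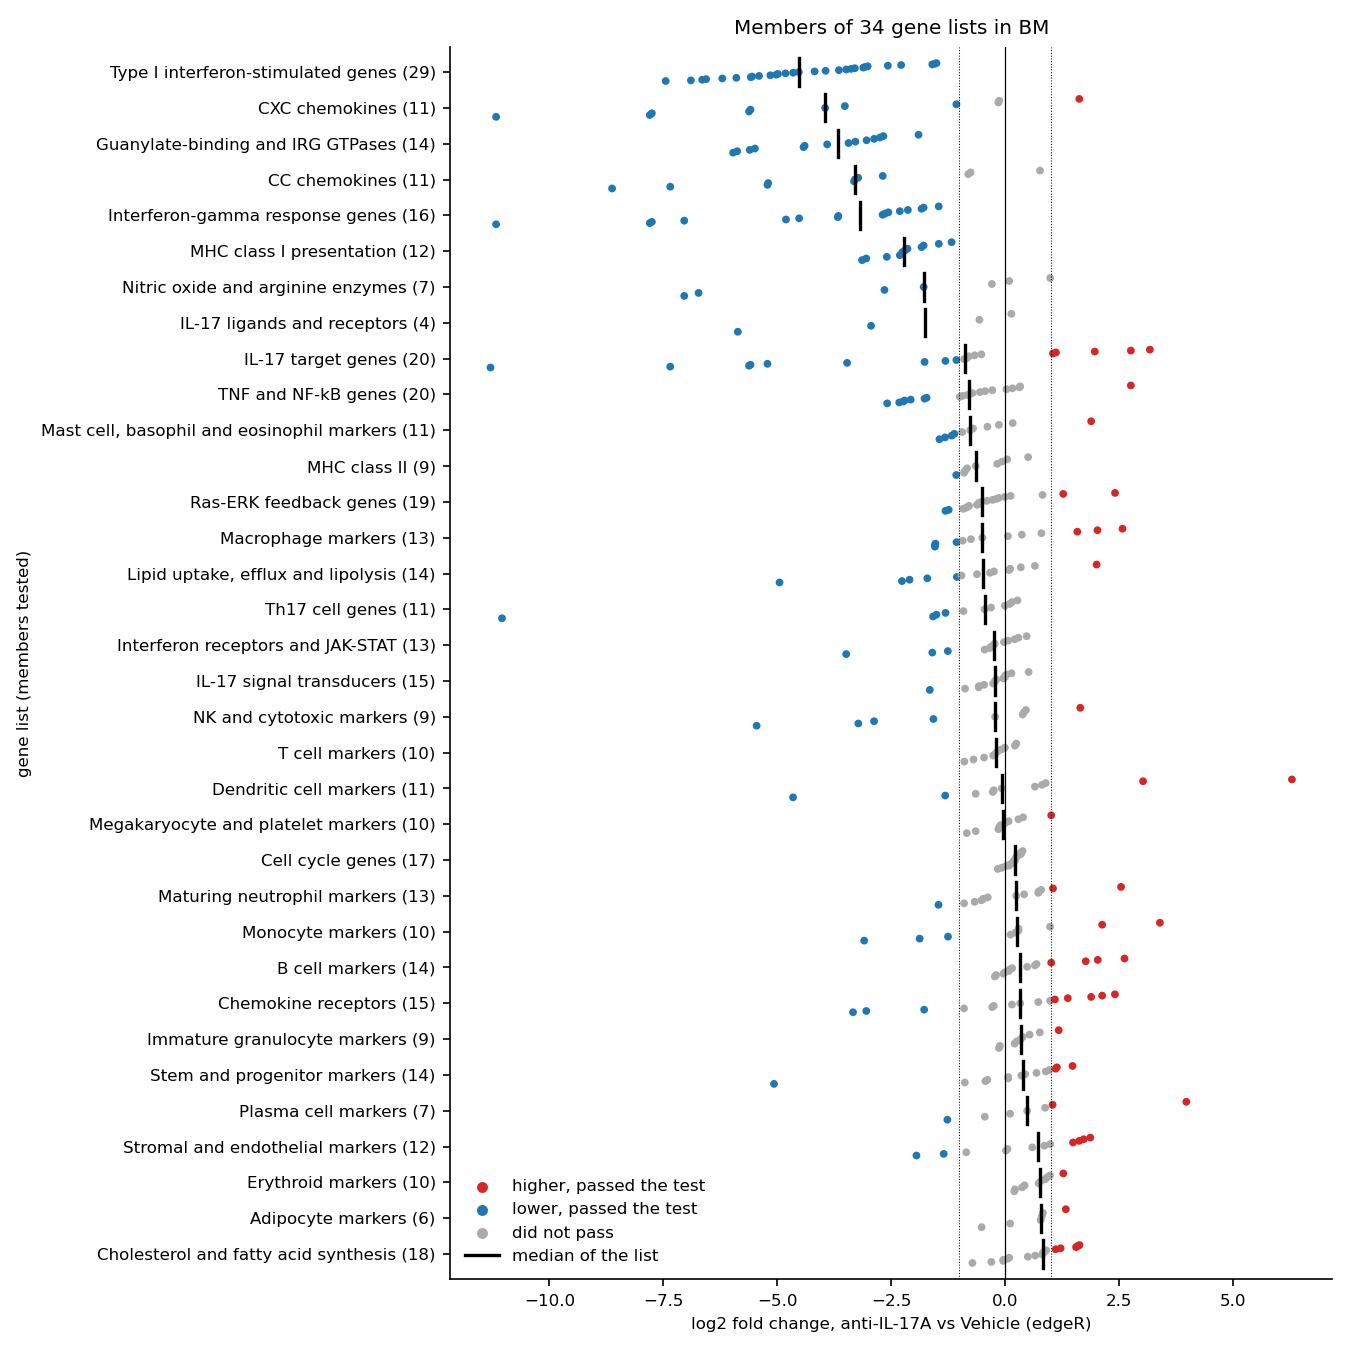
Log2 fold change between anti-IL-17A and Vehicle for each member of 34 gene lists, 1 point per gene, with the number tested in parentheses, dotted lines at 1 and -1 and a bar at each median. Interferon-stimulated genes, chemokines and MHC class I genes lie to the left, while cell cycle genes lie between the dotted lines.

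The genes for IL-17 itself fell. Normalized counts of *Il17a* (chr1:20730905-20734496, GRCm38) were 20.4, 22.6 and 33.6 in Vehicle and 1.02, 0 and 0 in the antibody libraries. From 67 and 1 summed counts, the level was lower by 81-fold (95% counting interval 14.1 to 3247). *Il17f*, the closest relative of IL-17A, went from 30.6, 33.3 and 32.4 to 6.09, 0.899 and 5.44, a log2 fold change of -2.94 (SE 0.50), with no overlap of the groups. *Il17a* had no count in WT, GLP-1R agonist and Combo libraries, so Vehicle was the group in which it was detected above 3 counts. Of the receptor genes, *Il17ra* was at 12006 ± 339 and 13213 ± 206 and *Il17rb*, a receptor chain for IL-17B and IL-25, at 86.9 ± 11.9 and 58.9 ± 7.09, and neither was called. *Il17rc* was not analysed here.

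Of 15 tested genes for signal transducers of the IL-17 receptor (6.67% called, against 16.1% of all genes), 1 fell and none rose. This was *Ikbke*, an IkB-related kinase, at 3742, 3766 and 3812 in Vehicle and 1135, 1266 and 1200 with the antibody (log2 fold change -1.65, SE 0.047, edgeR adjusted p = 2.94e-29). The adaptor genes *Traf3ip2* and *Traf6* had log2 fold changes of -0.26 (SE 0.12) and -0.58 (SE 0.042).

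Among 11 genes of Th17 cells 4 fell and none rose. *Il22* (chr10:118204942-118210047), which encodes a cytokine that Th17 and innate lymphoid cells release, was at 215, 289 and 286 in Vehicle and 0 in each library with the antibody. It was at least 93.3-fold lower, taking 3 counts per library as the floor. *Rora* (-1.51, SE 0.18), *Maf* (-1.58, SE 0.10) and *Ahr* (-1.31, SE 0.13), transcription factors of Th17 and other cells, also fell on the log2 scale. None of 10 T cell markers was called, and these summed to 3373 ± 30.1 in Vehicle and 2823 ± 105 with the antibody. In bulk marrow, fewer cells of a type and less RNA per cell cannot be told apart.

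Of 20 tested target genes of IL-17, 9 fell and 5 rose, against 8.46% and 7.65% of all genes, with a median log2 fold change of -0.87. Another 5 targets, *Cxcl5*, *Ccl20*, *Csf2*, *Csf3* and *Mmp3*, were not analysed here. *Saa3*, an acute-phase serum amyloid A gene, fell the most among the tested targets. Its counts were 70778, 73811 and 75149 in Vehicle and 28.4, 26.1 and 32.6 with the antibody, a 2510-fold difference (edgeR adjusted p = 1.36e-49). The chemokine genes *Ccl2*, *Ccl7*, *Cxcl1* and *Cxcl3* and the cytokine gene *Il6* fell as well. *Ccl2* (chr11:82035571-82037453), whose product recruits monocytes, went from 3069, 2982 and 3111 to 67, 80.0 and 97.9 (log2 fold change -5.21, SE 0.092). *Il6* went from 344, 303 and 324 to 38.6, 20.7 and 29 (log2 fold change -3.47, SE 0.20). Each of these antibody libraries lay below every Vehicle library.

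Other targets of IL-17 went the opposite way. *Il1b*, the gene for interleukin-1β, rose from 604, 532 and 555 to 3722, 3906 and 3834, a 6.78-fold difference. *Ptgs2*, which encodes cyclooxygenase-2, rose from 56.7, 56.9 and 43.2 to 467, 449 and 513. *Steap4* rose (log2 fold change 1.97), *Cebpd* by 1.12 and *Mmp9*, a neutrophil gelatinase gene, by 1.05 on the log2 scale. The most counted targets did not pass the fold limit, with *Lcn2* (lipocalin-2) at a log2 fold change of -0.90 (SE 0.029), *S100a8* at -0.67 (SE 0.12) and *S100a9* at -0.52 (SE 0.019).

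**Figure D3:**
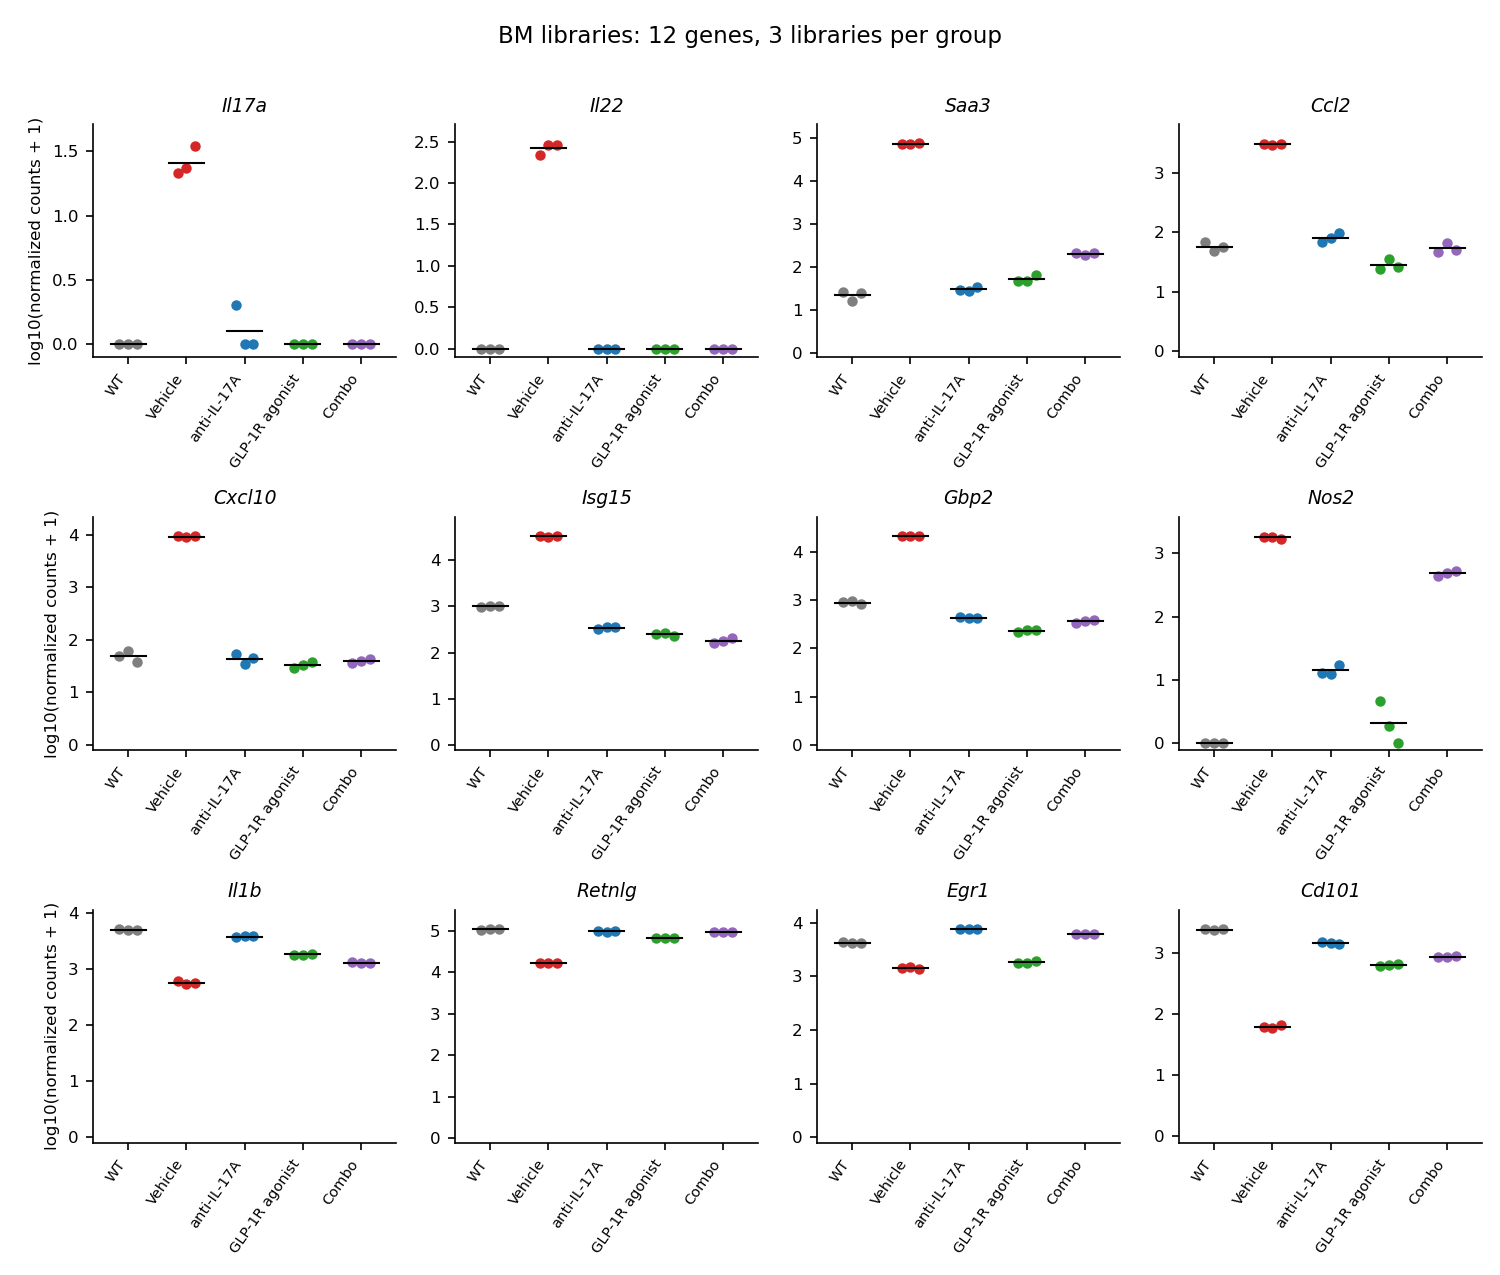
Levels of 12 genes in each BM library on a log10(normalized counts + 1) scale, by group, with a bar at the mean of the 3 log values. From *Il17a* to *Nos2* the Vehicle libraries are above the antibody libraries, and from *Il1b* to *Cd101* they are below them.

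Promoter sequences are shown for 1 gene each of the interferon, chemokine, acute-phase and IL-1 groups, chosen after their large changes were seen. Each is the 250 bases before the RefSeq start on GRCm38.p6, read 5′ to 3′ on the gene's strand. Capitals mark matches on either strand to the interferon-stimulated response element (ISRE, here GAAA and again GAAA with any 2 bases between), the gamma-activated site (GAS, TTCNNNGAA), the kB site of NF-kB and the C/EBP site (TTNNGNAA).
Isg15, chr4:156200819-156201068, minus strand: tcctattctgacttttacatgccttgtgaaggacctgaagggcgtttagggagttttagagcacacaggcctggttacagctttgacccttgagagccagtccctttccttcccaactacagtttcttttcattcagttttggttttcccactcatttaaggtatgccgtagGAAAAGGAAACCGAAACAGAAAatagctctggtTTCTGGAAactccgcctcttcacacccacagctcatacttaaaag
Cxcl10, chr5:92348890-92349139, minus strand: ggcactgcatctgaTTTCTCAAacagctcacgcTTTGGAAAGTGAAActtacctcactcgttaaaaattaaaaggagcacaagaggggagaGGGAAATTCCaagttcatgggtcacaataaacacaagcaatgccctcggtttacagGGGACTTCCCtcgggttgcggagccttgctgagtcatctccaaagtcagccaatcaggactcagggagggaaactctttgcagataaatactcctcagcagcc
Saa3, chr7:46715677-46715926, minus strand: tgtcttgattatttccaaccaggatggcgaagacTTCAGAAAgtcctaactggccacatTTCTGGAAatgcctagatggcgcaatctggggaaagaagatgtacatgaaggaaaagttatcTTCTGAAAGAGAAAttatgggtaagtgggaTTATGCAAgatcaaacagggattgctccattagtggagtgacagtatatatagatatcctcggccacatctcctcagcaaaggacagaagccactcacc
Il1b, chr2:129371140-129371389, minus strand: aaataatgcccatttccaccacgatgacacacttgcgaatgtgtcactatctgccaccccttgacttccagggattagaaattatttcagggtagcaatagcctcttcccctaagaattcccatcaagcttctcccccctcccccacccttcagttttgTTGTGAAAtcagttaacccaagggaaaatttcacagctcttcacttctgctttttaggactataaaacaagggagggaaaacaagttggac

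*Isg15* holds 3 overlapping ISRE matches between 78 and 57 bases before the start and 1 C/EBP match. *Cxcl10* holds 1 ISRE match from 213 to 204 bases before the start, which overlaps 1 of its 2 C/EBP matches, and 2 kB matches from 159 to 150 and from 103 to 94. *Saa3* holds 4 C/EBP matches, of which 1 overlaps its ISRE match. *Il1b* holds 1 C/EBP match. Of 32841 RefSeq promoters in windows of this length, 2.98% hold an ISRE match, 7.02% a GAS match, 3.9% a kB match and 36.9% a C/EBP match. Among the 12864 promoters of genes in the BM count table these shares were 2.8%, 6.17%, 4.48% and 29.1%. Among 10 promoters found for 9 of the 14 guanylate-binding and IRG GTPase genes, 9 held an ISRE match and 6 a GAS match. Among 24 promoters of 21 of the 29 type I interferon-stimulated genes, 9 held an ISRE match. Among 16 promoters of 15 of the 20 IL-17 targets, 6 held a kB match and 11 a C/EBP match. High shares were not particular to this list. Of 21 promoters of TNF and NF-kB genes 9 held a kB match and 8 a C/EBP match. Of 12 promoters of maturing neutrophil markers 0 held a kB match and 10 a C/EBP match. A match describes these letters only and not the binding of a factor.

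Of 11 CC chemokine genes 8 fell and none rose (median log2 fold change -3.30). *Ccl12*, a ligand of CCR2, went from 1033, 1009 and 1065 to 2.03, 3.60 and 1.81. *Ccl7* was at 348, 314 and 316 in Vehicle and 2.03, 0.899 and 2.72 with the antibody and was lower by 174-fold (95% counting interval 79.5 to 475) from 862 and 6 counts. *Ccl5*, whose product attracts T cells and monocytes, fell (log2 fold change -3.30), and *Ccl6* and *Ccl9*, made by resting myeloid cells, had log2 fold changes of 0.77 (SE 0.054) and -0.81 (SE 0.031) without a call.

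Of 11 CXC chemokine genes 8 fell and 1 rose (median -3.95). The CXCR3 ligands, which interferons induce, led the decrease. *Cxcl9* went from 9317, 9769 and 9575 to 51.8, 44.1 and 33.6 and *Cxcl10* from 9445, 9078 and 9446 to 52.8, 33.3 and 44.4. *Cxcl11* was at 272, 308 and 283 in Vehicle and 0 in each library with the antibody, at least 102-fold lower. It shares 41.7% of its exon length with another annotated gene, and reads there were counted for both. *Cxcl1* went from 17, 45.1 and 45.6 to 0, 1.80 and 0 and *Cxcl2*, both ligands of CXCR2, from 3308, 3270 and 3305 to 1625, 1529 and 1562. The call for *Cxcl2* was lost when libraries were scaled by their totals.

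*Cxcl12* (chr6:117168535-117181367), the stromal chemokine that retains blood stem cells in the marrow, was the CXC gene that rose, from 824, 788 and 875 to 2672, 2484 and 2537 (log2 fold change 1.63, SE 0.046, edgeR adjusted p = 1.54e-29). Of 15 chemokine receptor genes 5 rose and 3 fell. *Ccrl2* and *Ccr7* were among those that fell (log2 fold changes -3.04 and -1.78). *Cxcr1*, *Cx3cr1*, *Ccr3*, *Cxcr3* and *Cxcr6* rose (log2 fold changes 2.41, 2.13, 1.89, 1.38 and 1.09). The call for *Cxcr6* was lost without Vehicle replicate 3 (0.99).

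Interferon-stimulated genes, which cells switch on in response to interferons, fell together. All 29 type I interferon-stimulated genes tested fell, with log2 fold changes from -7.45 for *Ifi44* to -1.51 for *Cmpk2* and a median of -4.53. *Isg15*, which encodes a ubiquitin-like antiviral protein, went from 33006, 31934 and 33374 to 323, 352 and 365, a 94.4-fold difference (edgeR adjusted p = 8.62e-49). *Irf7*, the transcription factor that amplifies interferon production, went from 48268, 49492 and 50888 to 1151, 1171 and 1198. *Ifit3* went from 16891, 17247 and 17103 to 149, 145 and 137, and *Oas1g*, a sensor of viral RNA, from 4081, 3992 and 4164 to 19.3, 28.8 and 24.5. In each case the groups were far apart relative to the spread within them.

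Effectors of the interferon-γ response moved with them. All 14 guanylate-binding and IRG GTPase genes, which attack vacuoles with microbes, fell (median -3.67), as did all 16 interferon-γ response genes (median -3.17). The interferon-γ list shares 3 chemokine genes with the CXC list, 3 genes with the class I list and *Nos2* with the list of nitric oxide and arginine enzymes. *Gbp2* (chr3:142620602-142638008) went from 21012, 20741 and 20654 to 451, 419.8 and 415 and *Cd274*, the gene for PD-L1, from 3557, 3647 and 3644 to 306, 306 and 248. Of 13 genes for interferon receptors and JAK-STAT proteins, 3 fell, among them the interferon-induced members *Stat2* (-3.49, SE 0.035) and *Irf9* (-1.26, SE 0.037). The receptor genes *Ifnar1* and *Ifngr1* had log2 fold changes of -0.34 (SE 0.036) and -0.024 (SE 0.025).

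**Figure D4:**
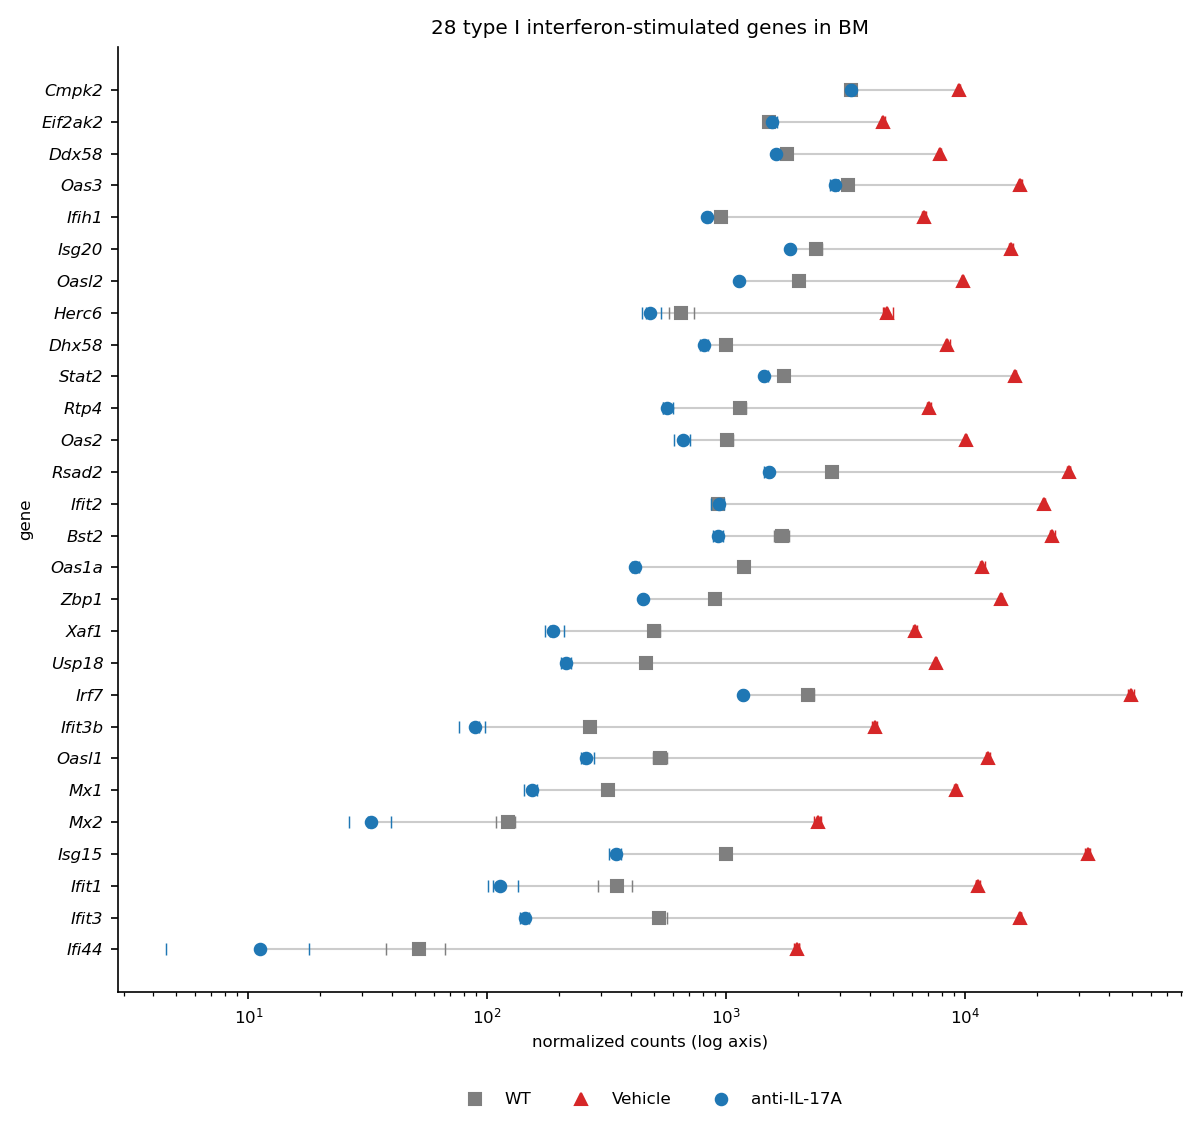
Mean normalized counts (symbols) and single libraries (ticks) of 28 type I interferon-stimulated genes in WT, Vehicle and anti-IL-17A BM, on a log axis. Vehicle is to the right for each gene, and for *Isg15* the antibody group at 346 is also below WT at 1004.

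All 12 MHC class I presentation genes fell (median -2.22). *B2m*, the light chain of class I, went from 133800, 128812 and 130561 to 29807, 29498 and 29796, *H2-K1* from 90023, 91462 and 91549 to 19001, 19653 and 18719, and *Nlrc5*, the transactivator of class I genes, from 5878, 6153 and 5764 to 631, 637 and 750.0. Reads of class I genes can be shared between near-identical copies, so values for single *H2* genes are uncertain. Of 9 MHC class II genes (11.1% called, against 16.1% of all genes), 1 fell and none rose (median -0.64). This was *H2-Eb1*, at 6828, 6764 and 7011 in Vehicle and 3252, 3266 and 3286 with the antibody (log2 fold change -1.07, SE 0.031), and the call was lost when libraries were scaled by their totals. *Cd74*, the invariant chain, had a log2 fold change of -0.88 (SE 0.031) and *Ciita*, the transactivator of class II genes, of 0.048 (SE 0.10).

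Of 7 genes for nitric oxide and arginine enzymes 4 fell and none rose. *Nos2* (chr11:78920787-78960254), the inducible nitric oxide synthase, went from 1813, 1831 and 1712 to 12.2, 11.7 and 16.3, and *Arg1*, arginase 1, from 2457, 2550 and 2474 to 17.3, 26.1 and 26.3. *Gch1* and *Slc7a2*, for the cofactor and the arginine supply of nitric oxide synthesis, fell (log2 fold changes -1.79 and -2.65). *Arg2* was at 508 ± 19.2 and 1010 ± 32.6, just short of the fold limit at 0.99 (SE 0.058).

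Of 20 TNF and NF-kB genes 7 fell and 1 rose (median -0.80). *Nfkbia*, the inhibitor IkBα and itself a target of NF-kB, went from 18554, 18602 and 18815 to 4376, 4604 and 4336. *Traf1*, *Tnip3*, *Icam1*, *Il1a*, *Tnfaip3* and *Relb* fell (log2 fold changes -2.59, -2.32, -2.23, -2.21, -1.77 and -1.72). *Tnf* itself was at 1515, 1555 and 1664 in Vehicle and 1127, 1192 and 1176 with the antibody (log2 fold change -0.44, SE 0.051) and was not called. The member that rose was *Il1b*.

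SHP2 signals through Ras and ERK. Of 19 feedback and target genes of this pathway 2 rose and 2 fell, shares near those of all genes. *Egr1*, an immediate early gene, went from 1400, 1470 and 1365 to 7500, 7530 and 7558 and *Fos* from 7699, 7955 and 7958 to 18764, 19489 and 18950. *Fosl1* and the cyclin gene *Ccnd1* fell (log2 fold changes -1.31 and -1.24). The feedback phosphatase gene *Dusp6* and the inhibitor gene *Spry2* had log2 fold changes of 0.12 (SE 0.038) and -0.27 (SE 0.084).

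Among genes that averaged 1000 or more normalized counts, *Klf4* (chr4:55527143-55532466), a factor of monocytes and macrophages, rose most, from 204, 217 and 281 to 2467, 2470 and 2439. *Fosb*, an AP-1 subunit, rose from 313, 347 and 322 to 2346, 2442 and 2453. *Retnlg*, a gene of mature neutrophils, rose from 16277, 16167 and 16485 to 96074, 94550 and 95186, and *Clec7a*, which encodes the β-glucan receptor dectin-1, from 543, 568 and 587 to 3226, 3262 and 3327. *Itih5*, *Cd300lb*, *Tmcc2* and *Slc40a1*, the iron exporter ferroportin, rose (log2 fold changes 2.20, 2.05, 2.03 and 2.03). Among decreases in this class *Cfb*, complement factor B, followed *Saa3*, from 28646, 29032 and 29786 to 71.1, 106 and 114. *Phf11d* and *Ifi205*, both interferon-induced, went from 5605 to 28.4 and from 3829 to 29.1 on average.

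Among called genes that averaged 10 or more counts and whose libraries did not overlap, the largest positive log2 fold change was that of *Cd209a* (chr8:3743397-3748984), which encodes a C-type lectin of monocyte-derived dendritic cells. It was at 0, 2.15 and 0 in Vehicle and 70.0, 70.1 and 67.1 with the antibody, higher by 91.4-fold (95% counting interval 25 to 759) from 221 and 2 counts. *Chp2* went from 5.67, 1.07 and 1.20 to 188, 166 and 169, *Stxbp6* from 11.3, 5.37 and 6.00 to 345, 318 and 320.1 and *Abca9* from 12.5, 7.52 and 9.60 to 282, 233 and 238. *Cd101* (chr3:100993529-101029556), an inhibitory receptor of mature neutrophils and myeloid cells, went from 61.2, 58 and 64.8 to 1544, 1451 and 1430. *Cd300lg* went from 14.4 to 433 on average. The low-count genes *Rem1*, *Cd209c*, *Syce1* and *4933440M02Rik* were higher by 39.4-fold (95% counting interval 16.6 to 122), 56.2-fold (95% counting interval 9.76 to 2253), 28.1-fold (95% counting interval 7.49 to 237) and 69.5-fold (95% counting interval 12.1 to 2776), so their sizes are poorly known.

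Of the 10 largest decreases, several were genes with no count in any antibody library. *Gm15056*, *Sct* (secretin) and *Kctd19* were at least 166-fold, 44-fold and 11.4-fold lower. *A630012P03Rik* was at 55.6, 59.1 and 27.6 in Vehicle and 0 in each library with the antibody, and this call was not made by DESeq2.

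Myeloid cell markers moved unevenly. Of 9 immature granulocyte markers (11.1% called, against 16.1% of all genes) 1 rose, *Mpo* (myeloperoxidase), by 1.18 on the log2 scale. Of 13 maturing neutrophil markers *Retnlg* and *Mmp9* rose and *Chil3* fell (log2 fold change -1.46). The maturing list had a median of 0.24, with 7 members above 0 and 6 below. Its sum, in which abundant genes such as *S100a9* weigh most, was 5059300 ± 25440 in Vehicle and 3746550 ± 26908 with the antibody. Of 10 monocyte markers *Klf4* and *Cx3cr1* rose and *Ly6c2*, *Ms4a6c* and *Cd14* fell. *Ly6c2*, a marker of inflammatory monocytes that interferons also induce, went from 90273, 95359 and 96397 to 25595, 25941 and 25390, while *Csf1r* and *Irf8* had log2 fold changes of 0.12 (SE 0.030) and 0.22 (SE 0.027).

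Of 13 macrophage markers 3 rose and 4 fell. The mannose receptor *Mrc1* went from 237, 212 and 251 to 1343, 1393 and 1429, and *Cd163* and *Slc40a1* rose (log2 fold changes 1.59 and 2.03). The heme oxygenase gene *Hmox1* and the phagocytic receptor gene *Mertk* fell (log2 fold changes -1.53 and -1.54), as did *C1qb* and *Spic*. The call for *Spic* was lost without Vehicle replicate 1 (-0.92). Among 11 dendritic cell markers *Cd209a* and *Xcr1* rose and *Bst2*, which is also interferon-induced, and *Clec9a* fell.

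Granzyme and perforin genes fell. Of 9 NK and cytotoxic markers 4 fell and 1 rose. *Gzmb* (granzyme B) went from 8411, 8408 and 8375 to 213, 187 and 177, *Prf1* (perforin) from 1105, 1228 and 1167 to 109, 129 and 137, and *Gzma* and *Klrk1* fell (log2 fold changes -2.87 and -1.57). *Ncr1*, the NK receptor NKp46, rose (log2 fold change 1.65), and *Klrb1c* and *Eomes* had log2 fold changes of 0.41 (SE 0.10) and 0.39 (SE 0.15). Of 11 mast cell, basophil and eosinophil markers 4 fell and 1 rose. The basophil proteases *Mcpt8* and *Prss34* fell (log2 fold changes -1.17 and -1.11), which was below the limit after scaling by library totals.

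B-lineage genes rose in part. Of 14 B cell markers 4 rose and none fell (28.6% called, against 16.1% of all genes), and those 4 act in early B cells. Over the list 10 members were above 0 and 4 below. *Igll1*, *Ebf1* and *Il7r* had log2 fold changes of 0.69, 0.48 and 0.097 and were not called. *Rag1* and *Rag2*, the recombinase that joins antigen receptor genes, went from 398, 362 and 367 to 1357, 1179 and 1312 and from 23.8, 17.2 and 42 to 148, 182 and 174. *Dntt*, terminal transferase, went from 219, 231 and 239 to 952, 951 and 918. *Vpreb3* went from 548, 537 and 549 to 1077, 1157 and 1062, a call that was lost without antibody replicate 2 (0.97). The gene *Cd79a*, used from the pro-B stage onward, had a log2 fold change of -0.037 (SE 0.031), and the groups overlapped.

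**Figure D5:**
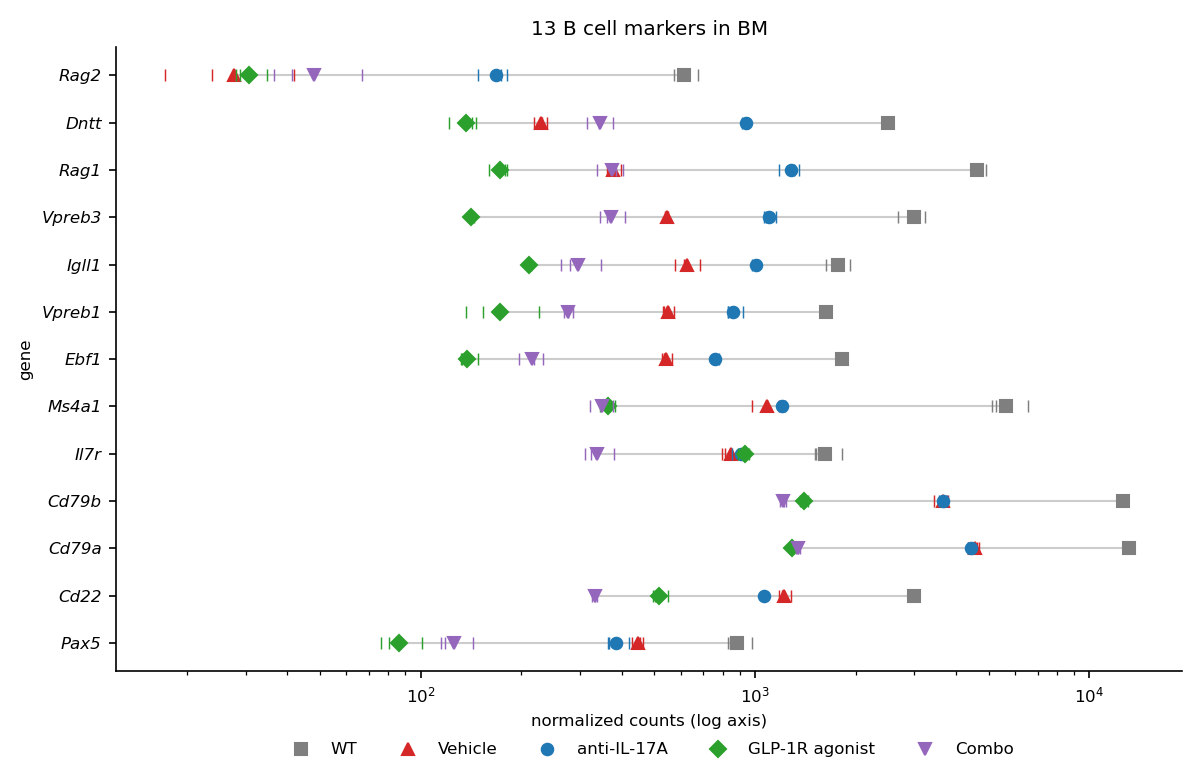
Mean normalized counts (symbols) and single libraries (ticks) of 13 B cell markers in the 5 BM groups, on a log axis. WT is highest for each gene, and the antibody and Vehicle symbols are apart for *Rag1*, *Rag2* and *Dntt* and close for *Cd79a*.

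Of 7 plasma cell markers *Jchain* and *Tnfrsf17* rose and *Prdm1* fell. *Jchain*, the joining chain of IgM and IgA, went from 7017, 6887 and 6868 to 14522, 14086 and 14216. *Tnfrsf17* was at 0, 2.15 and 1.20 in Vehicle and 21.3, 15.3 and 22.7 with the antibody, from 3 and 63 counts.

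Among 14 stem and progenitor markers 3 rose and 1 fell. *Kit*, the receptor for stem cell factor, went from 1335, 1328 and 1286 to 3635, 3683 and 3711, and *Sox4* and *Myb* rose (log2 fold changes 1.14 and 1.11). *Procr*, the gene for EPCR, fell from 344, 359 and 414 to 13.2, 14.4 and 5.44. *Cd34* had a log2 fold change of 0.97 (SE 0.052), and none of 17 cell cycle genes was called, with *Mki67* at 0.24 (SE 0.024). In the erythroid list 1 of 10 was called, or 10% against 16.1% of all genes. This was *Slc4a1*, which rose (band 3, 1.28, SE 0.024), and *Klf1* was just below the limit at 0.99 (SE 0.043). With libraries scaled by their totals 4 of the 10 were called, and without antibody replicate 2 there were 2. Without a fold limit all 10 were higher (edgeR adjusted p below 0.05), against 73% of all genes that passed in either direction. The list had a median of 0.76 and summed to 67278 ± 463 in Vehicle and 112519 ± 1655 with the antibody. Its 4 globin genes were not analysed here. Of 10 megakaryocyte markers 1 passed (10%, against 16.1% of all genes), *Vwf* at 1.01 (SE 0.10). Its call was lost without Vehicle replicate 3 (0.98) or antibody replicate 3 (0.97).

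Stromal genes also differed, although counts of whole marrow do not show which cells a transcript came from. Of 12 stromal and endothelial markers 4 rose and 2 fell. The collagen genes *Col1a1* and *Col1a2* went from 499, 522 and 528 to 1677, 1668 and 1780 and from 422, 463 and 439 to 1603, 1586 and 1659. *Lepr*, the leptin receptor and a marker of perivascular stroma, rose (log2 fold change 1.49, SE 0.21) together with *Cxcl12*. The endothelial genes *Kdr* (VEGFR2) and *Cdh5* fell (log2 fold changes -1.94 and -1.35). Of 6 adipocyte markers 1 was called (16.7%, against 16.1% of all genes), *Pparg*, which rose, at 1.33 (SE 0.18). *Adipoq* was at 81.6, 52.6 and 70.8 in Vehicle and 109.6, 138 and 116 with the antibody. Without Vehicle replicate 1, 2 of the 6 were called.

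Among 18 genes for cholesterol and fatty acid synthesis 5 rose and none fell (median 0.82). *Idi1* went from 107, 103 and 132 to 338, 360.5 and 358 and *Sqle*, squalene epoxidase, from 262, 268 and 284 to 783, 788 and 884. *Dhcr7* and *Srebf2*, the factor that controls this pathway, rose (log2 fold changes 1.22 and 1.11). The fatty acid synthase gene *Fasn* had a log2 fold change of -0.041 (SE 0.043). Scaling by library totals brought the number called to 9.

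Of 14 genes for lipid uptake, efflux and lipolysis 5 fell and 1 rose. *Lipg*, endothelial lipase, went from 11165, 11198 and 10992 to 332, 378 and 367 (log2 fold change -4.95, SE 0.046). The scavenger receptor gene *Msr1*, the lipid droplet gene *Plin2* and the liver X receptor gene *Nr1h3* fell (log2 fold changes -2.26, -2.10 and -1.71). *Cd36*, a fatty acid transporter, went from 318, 289 and 294 to 1223, 1197 and 1206.

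Antibody-treated marrow was next set against WT marrow, to see where the 2 groups differed. Obesity, treatment and possibly the time of collection differ between them and cannot be told apart. Here 844 genes were called, 6.32% of those tested, of which 307 (2.3%) were higher with the antibody and 537 (4.02%) lower. Without WT replicate 1 there were 833. The antibody group shares its libraries with the comparison to Vehicle, so the values are given side by side and not as a second test.

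Interferon-stimulated genes were lower than in WT in part. Of the 29 type I genes 12 were called lower and none higher (median -0.89). *Isg15* was at 958, 1040 and 1014 in WT (log2 fold change -1.53, SE 0.051, edgeR adjusted p = 6.76e-25) against 323, 352 and 365 with the antibody. Of 14 guanylate-binding and IRG GTPase genes 7 were called lower, or 5 without WT replicate 1, and of 12 MHC class I genes none. *Saa3* was at 25.1, 14.9 and 23.7 in WT and *Cxcl10* at 48.5, 60.5 and 36.6, and neither was called between the antibody and WT groups.

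B-lineage and class II genes were lower than in WT. Of 14 B cell markers 11 were called lower (median -1.47), and of 9 MHC class II genes 7 (median -1.36). *Rag1* was at 4924, 4419 and 4503 in WT (log2 fold change -1.85, SE 0.052). The summed level of B cell markers was 58313 ± 361 in WT, 16227 ± 344 in Vehicle and 19387 ± 153 with the antibody. *Cd79a*, a part of the B cell receptor, was at 13170 ± 464 in WT and 4438 ± 94 with the antibody. Their part in the class II values was not tested.

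Some genes were above WT. *Nos2* had no count in WT and was at 12.2, 11.7 and 16.3 with the antibody, at least 4.57-fold higher. *Lipg* was at 69.3, 49.6 and 80.7 in WT and 332, 378 and 367 with the antibody (log2 fold change 2.44, SE 0.092). *Col1a1* and *Col1a2* were higher by 2.30 and 2.11, and *Mmp13* and *Spp1*, osteopontin, by 2.19 and 1.66 on the log2 scale. *Cxcl2* was at 494, 490.0 and 476 in WT (log2 fold change 1.69, SE 0.053).

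Between the antibody and GLP-1R agonist groups, which differ in the agent given, 779 genes were called (5.83%), of which 455 (3.41%) were higher with the antibody and 324 (2.43%) lower. Of 14 B cell markers 13 were higher with the antibody (median 2.21). *Vpreb3* was at 139.7, 145 and 140.0 with the agonist (log2 fold change 2.96, SE 0.081) and *Rag1* at 160.3, 179 and 181 (2.89, SE 0.075). Of 29 type I interferon-stimulated genes 9 were higher with the antibody, of 20 IL-17 targets 7 were higher and 1 lower, and of 19 Ras-ERK genes 4 were higher.

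*Ptgs2* was at 50.6, 57.8 and 27.6 with the agonist against 467, 449 and 513 with the antibody (log2 fold change 3.37, SE 0.18). *Egr1* was at 1786, 1790 and 1890 (2.05, SE 0.033) and *Fos* at 6182, 5920 and 6052 (1.66, SE 0.026). *Tmem132e* and *Smtnl2* were higher with the antibody by 3.95 and 3.93 on the log2 scale, and *Gpr12*, with no count in the agonist libraries, was at least 6.75-fold higher. *Xist* was also among the 5 largest increases, at 2.17 ± 3.03 with the agonist.

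Of the 5 largest decreases against the agonist, *Tex11* was at 227, 279.6 and 240.2 with the agonist and 7.11, 10.8 and 9.07 with the antibody. The mast cell protease genes *Mcpt4* and *Tpsb2* were lower with the antibody, *Mcpt4* by 20.3-fold (95% counting interval 7.64 to 76.4) and *Tpsb2* from 32.8 to 2.48 on average. *Esrrg* and *1700042O10Rik* were lower by 29.1-fold (95% counting interval 7.71 to 246) and 17.1-fold (95% counting interval 6.37 to 64.5).

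Combo was then set against the antibody alone, 2 groups that differ in the agonist given. All 5 sex-linked genes tested were called between them, 1 higher in Combo and 4 lower. Sex of the cells and the added agonist cannot be told apart in this comparison. There were 757 called genes (5.67%), of which 139 (1.04%) were higher in Combo and 618 (4.63%) lower. Scaling by library totals gave 102 higher and 965 lower, which took the share of higher calls from 18.4% to 9.56% and the median log2 fold change from 0.024 to -0.17. Several genes that were low with the antibody were higher in Combo. *Nos2* was at 443, 495 and 525 (log2 fold change 5.17, SE 0.16), *Lipg* at 6988, 7321 and 7046 (4.31, SE 0.047) and *Saa3* at 207, 189.5 and 213 (2.80, SE 0.11).

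All 14 B cell markers were lower in Combo than with the antibody alone (median -1.69), as were 7 of 9 MHC class II genes (median -1.28) and 6 of 15 chemokine receptor genes. *H2-Aa* was at 1986, 1938 and 1972 in Combo (-1.41, SE 0.032). *Il1b* was at 1312, 1277 and 1305 in Combo against 3722, 3906 and 3834 with the antibody (-1.56, SE 0.039), and *Ptgs2* at 151, 133 and 131 (-1.78, SE 0.15). Of the 29 type I interferon-stimulated genes 6 were lower and none higher. The marker sums of B cells were 6128 ± 86.8 in Combo and 19387 ± 153 with the antibody, and all 4 Y-linked genes were lower in Combo.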

How the data were processed

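RNA of whole BM cells was sequenced, with 3 libraries in each of 5 groups, assigned from the sample labels. The authors deposited raw counts per gene. Per the paper's methods and the submitters' processing notes, STAR 2.7.2a was used for alignment to mm10 and featureCounts 2.0.1 for unstranded counting on GENCODE M22 genes, where a read that overlapped several genes added to each, and DESeq2 was their test. Genes with few counts had been left out, since the smallest gene total over 15 libraries was 55. Antisense partners cannot be told apart.

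The counts were fitted here with edgeR 4.0.16 (R 4.3.3) after TMM scaling and filterByExpr, which removed 0 genes, in 1 robust quasi-likelihood model of all 15 BM libraries, with 2-sided tests adjusted over 13353 genes. Calls needed an adjusted p below 0.05 and an absolute log2 fold change above 1. Standard errors came from the F statistic. Totals ranged from 31086184 to 39925495 counts. Replicates differed beyond sampling noise in all groups, most between WT replicate 1 and the others. Where a group had no count, folds are bounds against 3 counts per library. With 1 to 3 counts per library, ratios carry exact 95% intervals, which cover counting error only. Of 13353 symbols, 12852 matched 1 gene of GENCODE M21, used for positions. The fit was run on simulated data whose changes all lay beyond the fold limit and whose spread came from the fit itself. This cannot show how genes near the limit behave.

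Members and gene lists were chosen with earlier results of these data known. Of 436 list genes 403 were tested and 33 were not analysed here. Named genes were the 10 largest changes in each direction among calls that averaged 10 or more counts without overlap of the groups, the 10 largest among genes that averaged 1000 or more normalized counts, the 5 largest against the GLP-1R agonist, and list members. Alternatives were DESeq2 1.42.0, its size factors, library totals, 2 count filters, other fold limits, a replicate block, the 6 libraries alone and leaving out each library. Some list members enter the counts and medians but are not reported here singly. Figures were drawn with matplotlib.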

Additional observations from a re-analysis of the deposited data

How the results depend on the processing

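Between antibody and Vehicle, no called gene of the lists and families and no other named gene that was called reversed its direction under the alternatives run. Counts of genes called between antibody and Vehicle were 2151 with DESeq2's size factors, 2143 with DESeq2 (2130 shared), 2094 with the 6 libraries alone and 2104 to 2123 when each library was left out (988 to 1008 higher and 1103 to 1130 lower). They ranged from 819 to 878 against WT, from 763 to 786 against the GLP-1R agonist and from 719 to 759 for Combo. Without a fold limit 9750 genes passed (4860 higher, 4890 lower), with 8849 against WT, 8376 against the agonist and 7015 for Combo, and 357 list members instead of 180. A test against a log2 fold change of 1 left 1244 genes (485 higher), with 236, 216 and 193 in the other comparisons. Requiring 10 counts in every library left 645 higher calls of 1534, 467 calls for Combo and 26 of the 44 values of named genes. Scaling by library totals kept 1930 of the 2151 calls, and the cause of its shift was not tested. The same replicate numbers in the labels did not pair the libraries (correlations of deviations -0.0022 to 0.035), and a replicate block gave 2154 calls, of which 2147 were shared, with 841, 785 and 761 in the other comparisons. At a depth of 31281097 counts or more, genes near 3 counts have no usable fold. Among the same single genes, counted once per setting and called or not, 4406 values stayed on their side of the limits, 227 gained a call and 46 lost it, and 9 lost it when a library was left out.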

Other observations

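Gene families defined by a shared symbol prefix, chosen after their values were seen, add to the picture of antibody against Vehicle. Of 9 Schlafen genes, which encode interferon-induced regulators of immune cells and viral RNA, 7 fell and 1 rose. *Slfn4* went from 103293, 103889 and 101288 to 6428, 6350 and 6388 and *Slfn5* from 12797, 12541 and 12587 to 661, 668 and 726, while *Slfn14*, a gene of the erythroid and platelet lineages, went from 24.9, 22.6 and 34.8 to 230.4, 276 and 238. The call for *Slfn9* was lost without Vehicle replicate 1 (-0.95). All 6 Serpina3 genes, for serine protease inhibitors, fell (median -4.07), with *Serpina3f* from 3845, 3891 and 3912 to 177, 174 and 178. These are close copies, and reads may be split among them. Of 10 Ly6 genes, for small surface proteins, 6 fell and none rose. *Ly6i* went from 4662, 4972 and 5085 to 58.9, 53 and 57.1 and *Ly6a*, the Sca-1 antigen, from 14803, 14885 and 14960 to 537, 560.1 and 497. Of 11 Ms4a genes 7 fell, led by *Ms4a6d* (-4.23, SE 0.056) and *Ms4a4c* (-3.76, SE 0.060), whereas *Ms4a1*, which encodes CD20 of B cells, had a log2 fold change of 0.16 (SE 0.10).

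Among 12 Parp genes, 4 fell and 1 rose. The 4 were *Parp12* (-3.86, SE 0.054), *Parp10* (-2.96, SE 0.039), *Parp14* (-2.76, SE 0.038) and *Parp9* (-2.48, SE 0.038), and *Parp1*, the DNA repair enzyme, had a log2 fold change of 0.55 (SE 0.033). All 3 Trim30 genes fell, *Trim30d* most (-2.79, SE 0.057). All 4 Cd209 genes tested rose. Besides *Cd209a* and *Cd209c*, *Cd209f* went from 5.67, 6.44 and 6.00 to 30.5, 37.8 and 34.5, and *Cd209d* was higher by 21.8-fold (95% counting interval 7.19 to 108). Of 46 genes of histone cluster 1, 11 fell and none rose, with *Hist1h1d* from 586, 600.3 and 659 to 205, 146 and 175. Histone mRNAs of this cluster mostly lack a poly(A) tail and the libraries were made from poly(A) RNA, so their counts depend on that selection. The calls for *Hist1h4k* and *Hist1h4h* were lost without Vehicle replicate 2 (-0.89) and antibody replicate 2 (-0.94).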
